A study of Sus scrofa with 23 samples.

Results

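The genes described here encode proteins that copy DNA or carry the cell into and through mitosis. They were chosen by name: every probe set whose platform symbol is exactly PCNA, MCM2, MCM5, MCM7, CCNB1, CCNB2, CDK1 (or its older symbol CDC2) or TOP2A. This gave 10 probe sets for 6 of the 8 genes, out of 10069 probe sets for 6765 named genes on the array. PCNA (Ssc.9387.1.A1_at), CCNB1 (Ssc.14243.1.S1_at), CCNB2 (Ssc.14182.1.A1_at) and TOP2A (Ssc.14506.1.S1_at) have 1 probe set each. MCM2 and MCM5 have 3 each, of which 2 in each gene come from the same sequence cluster of the array's design (Ssc.1408.1.A1_at and Ssc.1408.2.S1_at, and Ssc.16649.1.S1_a_at and Ssc.16649.2.S1_at). No probe set of the annotation used here carries the symbol MCM7, CDK1 or CDC2, so these genes were not analysed here. The rule itself goes by symbol and uses no measured value, but these genes were picked with earlier results of the same data known.

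The samples were articular cartilage from pigs of a Duroc and Pietrain cross, taken from sibs with and without osteochondrosis, a disorder of growing joints in which cartilage is not replaced by bone in an orderly way. RNA was measured on the Affymetrix Porcine Genome Array, on which a probe set is a group of short probes that reads 1 transcript. The 4 groups were femur affected (4 samples) and femur non-affected (4 samples), both from the medial femoral condyle of the knee, and humerus affected (7 samples) and humerus non-affected (6 samples), both from the medial humeral condyle of the elbow. These 21 samples came from 23 arrays, since 2 pairs of near-identical arrays were averaged. The labels give neither the age of the pigs nor which pigs were sibs, and leave it unsaid whether each array stands for its own animal, so that the p-values cover only the variation among these samples, which may be technical.

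PCNA is the sliding clamp that holds DNA polymerases on the template. MCM2 and MCM5 are subunits of the ring-shaped helicase that opens the double helix ahead of the replication fork. TOP2A, topoisomerase II alpha, untangles copied chromosomes, and its transcript is made mainly by cells that are preparing to divide. CCNB1 and CCNB2, cyclins B1 and B2, bind and activate the kinase CDK1 at the entry into mitosis and are destroyed as mitosis ends. In growing joint cartilage, chondrocytes divide in a layer above the ossification front, then enlarge, mineralise their matrix and are replaced by bone, whereas chondrocytes of mature articular cartilage seldom divide.

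Chondrocyte markers were high in every sample. The mean of 6 chondrocyte marker genes ranged from 11.1 to 12.3 in log2 units over the samples of all 4 groups. Array medians ranged from 6.04 to 6.17 in the femur and from 6.17 to 6.32 in the humerus. The bacterial hybridisation controls bioB, bioC and bioD, which are added to every array and do not come from the pig, averaged 10.99 to 11.18 on femoral arrays and 9.59 to 9.97 on humeral arrays, with no overlap, so the site of the cartilage and the handling of the arrays cannot be told apart. On the first principal component, which held 43.5% of the variance, the sample humerus non-affected 5 lay at 29.0, inside the femoral range of 26.9 to 58.4, while the other humeral samples lay between -53.2 and -0.80. Where leaving out that sample turns a difference or a median given here, the value without it stands beside it or in the closing section.

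**Figure D1:**
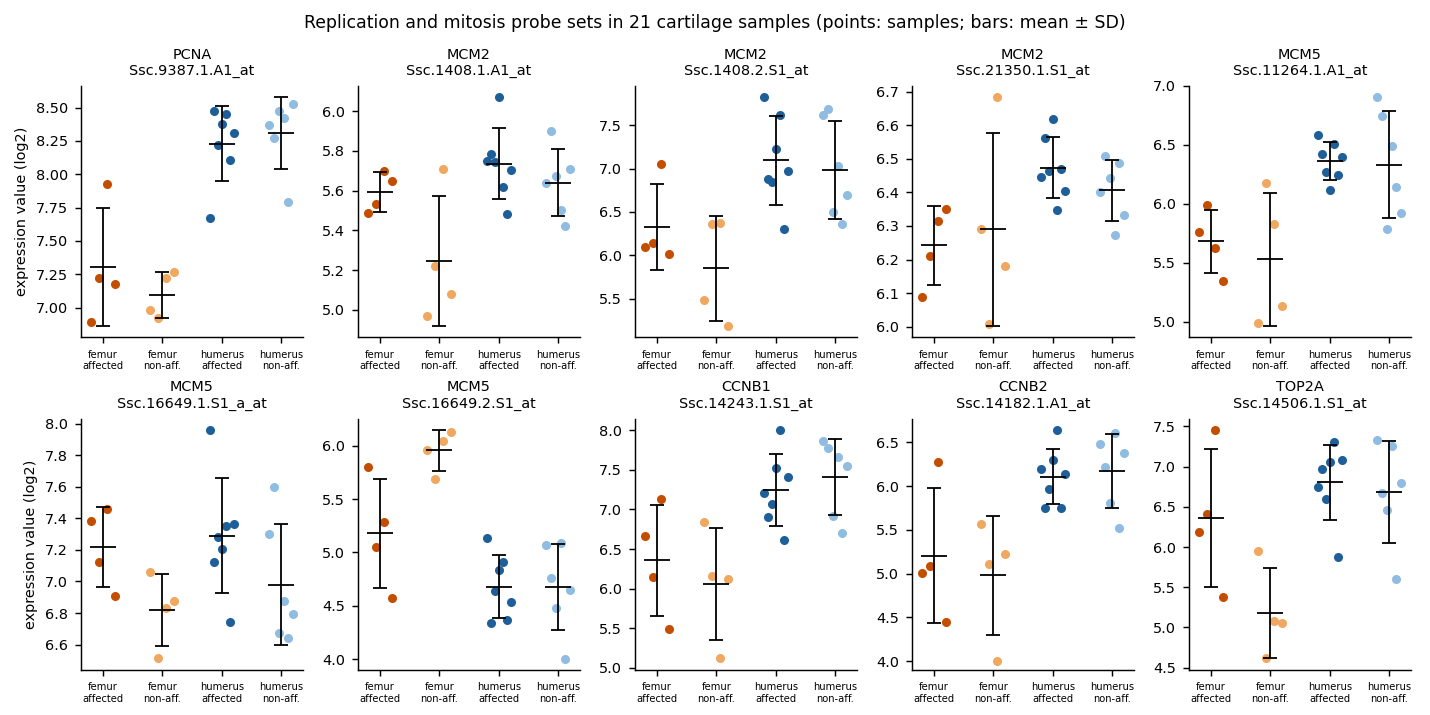
Expression values (log2 units, vertical axes) of the 10 probe sets in the 4 groups (horizontal axes), with 1 point per sample and bars for the mean ± SD. In PCNA, CCNB1, CCNB2 and TOP2A most femoral points lie below most humeral points, while MCM5 probe set Ssc.16649.2.S1_at runs the other way.

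The clearest difference in these genes was between the joints. Of the 9 probe sets bright enough to be tested, 7 were lower in the femur than in the humerus (limma, adjusted p under 0.05), among them PCNA, CCNB1, CCNB2 and TOP2A, which were 1.95 to 2.17 times lower. The filter used the mean of all 21 samples, 13 of them humeral, so it favoured probe sets high in the humerus. CCNB2 passed the cut of 5.30 with a femoral mean of 5.09 and a humeral mean of 6.14. The MCM5 probe set that it left out, Ssc.16649.2.S1_at, was higher in the femur (5.57 against 4.68). The site comparison called 51.8% of all 16799 tested probe sets, and 34.2% of them as lower in the femur, so a lower femoral value was common on these arrays. The 9 tested members had a median difference of -0.95 in log2 units (femur minus humerus), and the median over all tested probe sets was -0.12. With each array centred on its own median, 6 members were called and these medians were -0.78 and 0.05. With quantile normalisation 6 were called as well, and the medians were -0.78 and 0.03. Of all site calls, 34.0% were higher in the femur with the values as deposited, 56.7% with arrays centred and 54.5% with quantile normalisation. Of the 16799 tested probe sets, 5744, 3756 and 3912 were called lower in the femur, in the same order.

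PCNA had values of 6.89, 7.22, 7.93 and 7.18 in the affected femur samples and 6.98, 6.92, 7.22 and 7.27 in the non-affected femur samples. In the affected humerus its lowest, median and highest values were 7.67, 8.31 and 8.47, and in the non-affected humerus they were 7.79, 8.39 and 8.53. The non-affected samples of both joints did not overlap, and among affected samples only femur affected 3 reached the humeral range. The femoral mean of 7.20 ± 0.33 (SD, n = 8) lay below the humeral mean of 8.27 ± 0.27 (SD, n = 13), a difference of -1.07 ± 0.13 (SE, adjusted p = 3.6e-06 by limma). All 8 femoral samples lay below the humeral mean.

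CCNB1 had values of 6.66, 6.15, 7.13 and 5.49 in the affected femur samples and 6.84, 6.16, 5.12 and 6.12 in the non-affected femur samples. In the affected humerus it ran from 6.62 through a median of 7.21 to 8.01, and in the non-affected humerus from 6.71 through a median of 7.60 to 7.86. The femoral samples spread more widely than the humeral ones, and femur affected 1, femur affected 3 and femur non-affected 1-2 (the average of 2 near-identical arrays) reached into the humeral range. The difference between the joints was -1.11 ± 0.24 (SE, adjusted p = 0.000609 by limma), with 8 of 8 femoral samples below the humeral mean.

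CCNB2, the other B-type cyclin measured, was dimmer but kept the same shape. Its values were 5.01, 5.08, 6.28 and 4.45 in the affected femur samples and 5.57, 5.11, 4.01 and 5.23 in the non-affected femur samples. The value of femur non-affected 4, 4.01, is close to 4, a lower bound of the deposited values, so the spread of the femur is compressed there. The affected humerus ran from 5.75 through a median of 6.14 to 6.64, and the non-affected humerus from 5.53 through a median of 6.30 to 6.61. Among femoral samples, femur affected 3 and femur non-affected 1-2 exceeded the lowest humeral value. The difference between the joints was -1.04 ± 0.22 (SE, adjusted p = 0.000527 by limma).

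TOP2A had values of 6.19, 6.41, 7.46 and 5.38 in the affected femur samples and 5.96, 4.61, 5.08 and 5.06 in the non-affected femur samples. In the affected humerus it ran from 5.88 through a median of 6.97 to 7.30, and in the non-affected humerus from 5.60 through a median of 6.73 to 7.34. Here the highest of all 21 samples was femoral, femur affected 3, while 3 of the 4 non-affected femur samples lay below every humeral sample. The femoral mean was 5.77 ± 0.92 (SD, n = 8) and the humeral mean 6.75 ± 0.53 (SD, n = 13), a difference of -0.96 ± 0.28 (SE, adjusted p = 0.00664 by limma).

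**Figure D2:**
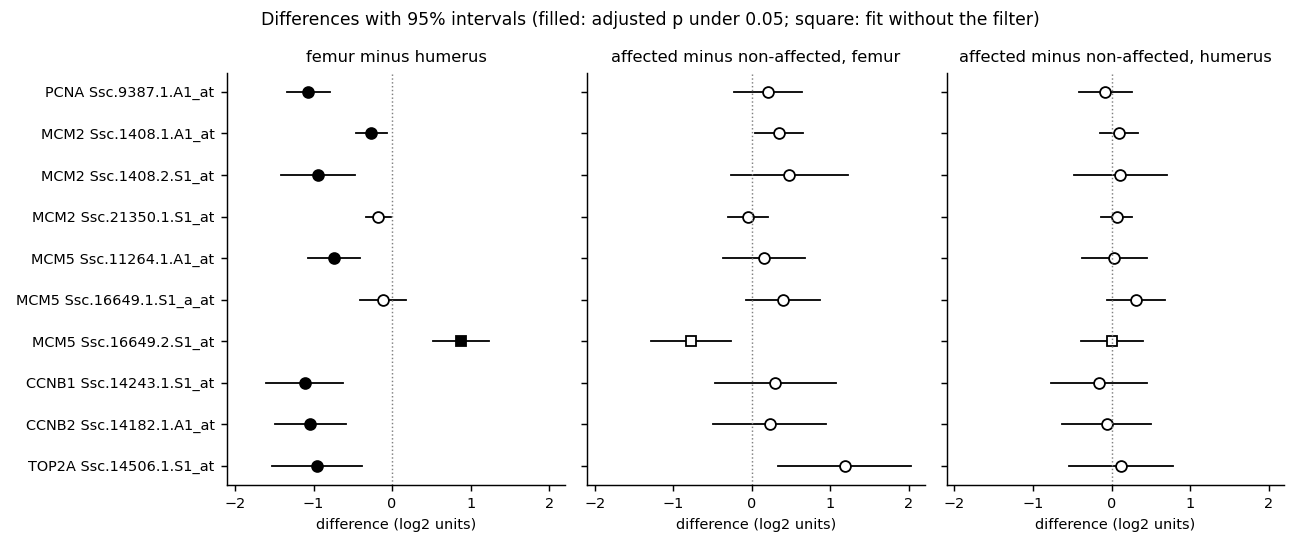
Differences in log2 units (horizontal axes) with 95% intervals for each probe set (rows), from left to right femur minus humerus, affected minus non-affected in the femur, and affected minus non-affected in the humerus. Filled symbols mark an adjusted p under 0.05, which occurs only in the left panel, and squares mark the dim MCM5 probe set from the fit without the filter on low values.

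The 3 MCM2 probe sets did not give equal differences. Probe set Ssc.1408.2.S1_at had values of 6.09, 6.14, 7.06 and 6.01 in the affected femur samples and 5.48, 6.36, 6.37 and 5.19 in the non-affected femur samples. It ran from 6.30 through a median of 6.97 to 7.82 in the affected humerus and from 6.36 through a median of 6.86 to 7.69 in the non-affected humerus. Femur affected 3 again stood well above the other affected femur samples. The difference between the joints was -0.95 ± 0.23 (SE, adjusted p = 0.0017 by limma). Probe set Ssc.1408.1.A1_at differed by -0.27 (adjusted p = 0.0261), a call that was lost with arrays centred on the median (-0.10, adjusted p = 0.426), with quantile normalisation (-0.12, adjusted p = 0.301), without femur non-affected 1-2 (adjusted p = 0.0653) and without femur non-affected 5 (adjusted p = 0.0608). Probe set Ssc.21350.1.S1_at, which spanned only 6.01 to 6.68 over all samples, differed by -0.18 (adjusted p = 0.0600) and was called without femur non-affected 4 (-0.24, adjusted p = 0.00517).

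The MCM5 probe sets disagreed in direction. Probe set Ssc.11264.1.A1_at had values of 5.76, 5.99, 5.63 and 5.35 in the affected femur samples and 4.99, 6.17, 5.83 and 5.13 in the non-affected femur samples, against 6.12 to 6.59 in the affected humerus and 5.79 to 6.90 in the non-affected humerus. Affected femur and affected humerus did not overlap, and the difference between the joints was -0.74 ± 0.16 (SE, adjusted p = 0.000624 by limma). The brightest probe set, Ssc.16649.1.S1_a_at, ran from 6.51 to 7.46 in the femur and from 6.64 to 7.96 in the humerus, and its difference of -0.11 (adjusted p = 0.517) changed sign with quantile normalisation (0.06) and with arrays centred (0.06).

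The dimmest member, MCM5 probe set Ssc.16649.2.S1_at, averaged 5.02 over the samples, under the filter at 5.30, and was not among the 9 tested. Its values were 5.80, 5.05, 5.29 and 4.58 in the affected femur samples and 5.96, 5.69, 6.04 and 6.13 in the non-affected femur samples. In the affected humerus it ran from 4.34 through a median of 4.64 to 5.13, and in the non-affected humerus from 4.002 through a median of 4.71 to 5.09. All 4 non-affected femur samples thus lay above every humeral sample, opposite in direction to Ssc.11264.1.A1_at. In the fit without the filter the difference between the joints was 0.88 ± 0.17 (SE, adjusted p = 0.000384 by limma). The annotation pairs all 3 probe sets with MCM5, and whether they read the same transcript was not tested.

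For the single-probe-set genes the site difference had the same direction in affected and in non-affected cartilage, where it has no test of its own. In affected samples the femoral minus humeral mean was -0.93 for PCNA, -0.89 for CCNB1, -0.90 for CCNB2 and -0.45 for TOP2A. In non-affected samples the corresponding differences were -1.21, -1.35, -1.19 and -1.51. Among affected samples, 1 of the 9 tested members (MCM5 Ssc.11264.1.A1_at) lay lower in the femur with no overlap, as did 12.9% of all tested probe sets. Among non-affected samples it was also 1 of 9 (PCNA), against 13.6% of all tested probe sets. By this count of separated samples the members were close to the array as a whole.

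The marker genes of other cells differed between the joints too. Counts are of markers called at an adjusted p under 0.05 by limma. Of all tested probe sets, 51.8% were called and 34.2% were called lower in the femur. Of 7 macrophage markers tested, 6 were called lower in the femur and none higher, with a median difference of -1.97. The mean level of the list ran from 4.62 to 6.44 in affected femur, 6.23 to 8.22 in non-affected femur, 7.18 to 9.71 in affected humerus and 5.63 to 9.08 in non-affected humerus. Of 6 hypertrophic chondrocyte markers, 5 were called lower in the femur and 1 higher, with a median of -1.72. Among them was COL10A1, the collagen made by enlarged chondrocytes. Their mean level ran from 6.84 to 9.28 in affected femur, 6.82 to 8.95 in non-affected femur, 7.71 to 10.85 in affected humerus and 7.20 to 10.58 in non-affected humerus. Calls by site were also found among endothelial markers (5 of 7 lower, 1 higher, median -2.18), neutrophil markers (6 of 7 lower, none higher, median -2.22), osteoclast markers (4 of 5 lower, 1 higher, median -0.88) and bone markers (3 of 5 lower, 1 higher, median -0.39). The filter used the mean of all samples, so markers high in the humerus could pass it with low femoral values. The mean level of the 7 neutrophil markers ran from 4.66 to 5.115 in non-affected femur, under the filter. It ran from 4.19 to 6.41 in affected femur, 5.195 to 10.51 in affected humerus and 4.67 to 11.28 in non-affected humerus. The filter left out no measured neutrophil, osteoclast or hypertrophic marker. Its part in these counts was not tested. Of 5 erythroid markers, 1 was called lower and 1 higher (median -0.43). Of 6 chondrocyte markers, 2 were called lower and 1, SOX9 (1.15), higher (median -0.10). Of 2 lymphocyte markers, 1 was called lower (median -1.06). No marker of these lists was near the lower bound in all samples of any group. The part of these cells in the values of PCNA, the MCM genes, the cyclins and TOP2A was not tested. In bulk tissue, fewer cells of a kind and less RNA per cell cannot be told apart.

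The second question was whether affected cartilage differed from non-affected cartilage in these genes. No member passed the test in any of the 3 status comparisons. With both joints together, 0 of 9 members and 0.0% of all tested probe sets were called (smallest adjusted p over all probe sets 0.355 by limma, 1223 probe sets at an unadjusted p under 0.05). All 9 member differences were above 0, with a median of 0.08, while 47.1% of all tested probe sets were above 0 with a median of -0.01. These signs were not stable for the small differences: CCNB1 (0.01) was below 0 with arrays centred on the median (-0.01), and without humerus non-affected 5 CCNB1 (-0.06), CCNB2 (-0.02) and PCNA (-0.02) were. Without femur affected 3 these genes were below 0 as well (-0.09, -0.09 and -0.05). The largest member difference was that of TOP2A, 0.53 ± 0.27 (SE, 95% interval -0.03 to 1.08, adjusted p = 0.688), with 9 of 11 affected samples above the non-affected mean. MCM5 Ssc.16649.1.S1_a_at followed with 0.34 ± 0.14 (SE, adjusted p = 0.631).

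In the femur, where 1.14% of all tested probe sets were called, 0 of 9 members were. TOP2A had the largest difference. Its affected mean was 6.36 ± 0.86 (SD, n = 4) and its non-affected mean 5.18 ± 0.56 (SD, n = 4), a difference of 1.18 ± 0.40 (SE, 95% interval 0.34 to 2.02) with an adjusted p of 0.130 by limma over all probe sets. Each of the 4 affected values exceeded the non-affected mean, but the groups overlapped, since femur affected 4 (5.38) was below femur non-affected 1-2 (5.96). Without femur affected 3 the difference was 0.81 (adjusted p = 0.345), and without femur affected 4 it was 1.51 (adjusted p = 0.05, not under the threshold). The 8 other tested members differed by -0.05 to 0.48, and CCNB1 and CCNB2 by 0.30 and 0.22, less than the SD of either group. For both cyclins the 95% interval was wide, from -0.47 to 1.07 for CCNB1 and from -0.49 to 0.94 for CCNB2. The dim MCM5 probe set Ssc.16649.2.S1_at differed by -0.78 ± 0.24 (SE, adjusted p = 0.115 in the fit without the filter), with all 4 affected samples below the non-affected mean. In the same samples the macrophage markers had a median difference of -2.01, all 7 below 0 and 0 called, and the chondrocyte markers 0.49, all 6 above 0 and 0 called; their part in the member values was not tested.

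In the humerus the member differences were small. Again 0 of 9 members and 0.0% of all tested probe sets were called (smallest adjusted p 0.641 by limma, 1100 probe sets at an unadjusted p under 0.05). The affected humerus had a TOP2A mean of 6.80 ± 0.47 (SD, n = 7), the non-affected humerus one of 6.69 ± 0.63 (SD, n = 6), and the difference of 0.12 had a 95% interval of -0.54 to 0.78. The PCNA mean was 8.23 ± 0.28 (SD, n = 7) in affected humerus, against 8.31 ± 0.27 (SD, n = 6) where the humerus was non-affected (difference -0.08, 95% interval -0.41 to 0.26). The largest member difference was that of MCM5 Ssc.16649.1.S1_a_at, 0.31 (95% interval -0.06 to 0.68). Affected and non-affected humerus overlapped in all 10 probe sets. Without humerus non-affected 5 the difference was -0.098 for TOP2A, -0.011 for MCM2 Ssc.1408.2.S1_at (0.11 with it) and -0.003 for MCM5 Ssc.11264.1.A1_at (0.03 with it). The median of the 9 tested members was then -0.01, against 0.07 with that sample.

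The difference between both status effects, femur minus humerus, was tested as an interaction. It called 0.268% of all tested probe sets and 0 of 9 members. TOP2A again came first, at 1.06 ± 0.51 (SE, 95% interval -0.01 to 2.13, adjusted p = 0.268 by limma). The 8 other tested members ranged from -0.11 to 0.46.

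**Figure D3:**
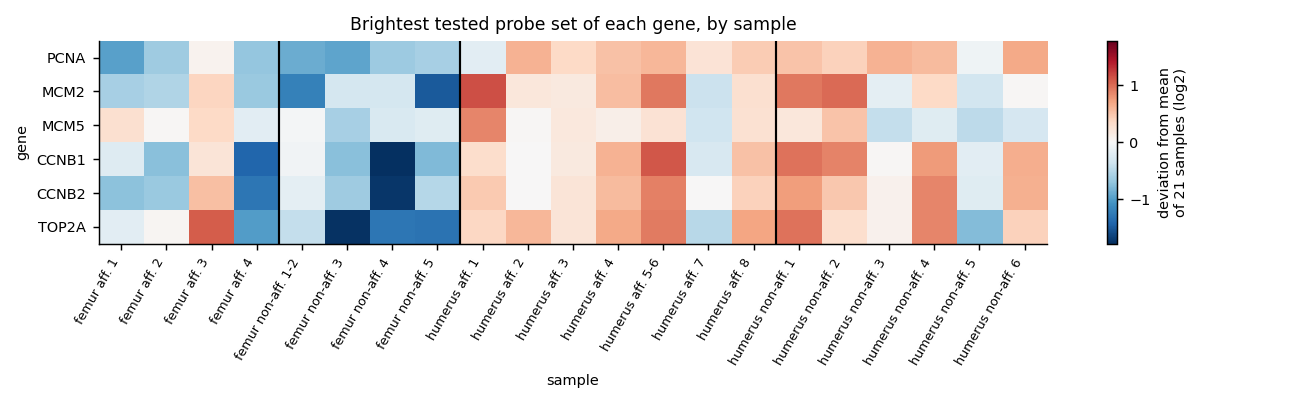
Deviation of each sample (columns, grouped by joint and status) from the mean of 21 samples, in log2 units (colour), for the brightest tested probe set of each of the 6 genes (rows). Femur affected 3 lies above the mean in 6 of 6 rows, while most other femoral cells are blue, and humerus non-affected 5 is below the mean in every row, unlike most humeral columns.

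Within a group the genes tended to be high or low in the same samples. Taking the brightest tested probe set of each gene, femur affected 3 was the highest of its group in all 6 genes, and femur affected 4 was the lowest in 5 of them. In the humerus, humerus non-affected 5 was the lowest of its group in all 6 genes and humerus affected 7 in 5 of 6. Some samples were mixed. Humerus affected 1 was the highest of its group in MCM2 and MCM5 and the lowest in PCNA. Femur non-affected 4 was the highest of its group in MCM2 and the lowest in CCNB1 and CCNB2. Averaged over the 6 genes, the deviation from the mean of all samples was 0.44 in femur affected 3, between -0.87 and -0.40 in the other affected femur samples, and between -1.003 and -0.46 in the non-affected femur samples. It was -0.21 in humerus affected 7 and 0.22 to 0.79 in the other affected humerus samples, and -0.34 in humerus non-affected 5 and 0.03 to 0.72 in the other non-affected ones.

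The same samples lay at the ends of their groups in hypertrophic markers. The hypertrophic marker mean was 9.28 in femur affected 3, the highest of its group, and 6.84 in femur affected 4, the lowest. Neither stood apart, since femur affected 1 was at 8.84 and femur affected 2 at 7.08. The mean deviations of femur affected 1 and 2 over the 6 genes were alike, -0.40 and -0.42. In the humerus the hypertrophic marker mean was 7.71 in humerus affected 7 and 7.20 in humerus non-affected 5. The other samples of those groups had 9.995 to 10.85 and 9.78 to 10.58. In the non-affected femur it went the other way. Femur non-affected 4 had the lowest mean deviation of the 6 genes in its group (-1.003) but the highest hypertrophic marker mean, 8.95. Macrophage markers were lowest of their groups in humerus affected 7 and humerus non-affected 5, at 7.18 and 5.63, but in the affected femur they were 4.69 in femur affected 3 and 6.44 in femur affected 4. Their part in the levels of the replication and mitosis genes was not tested. Without humerus non-affected 5 the site comparison still called 7 of the 9 members, and without femur affected 3 or humerus affected 7 it called 7 as well.

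CCNB1 and CCNB2 ran closest together. Within the femur their values correlated with a Pearson r of 0.93 and a Spearman rho of 0.79 (n = 8), and without the 2 samples farthest from the median of CCNB1 r was 0.83. Within the humerus r was 0.93 and rho 0.94 (n = 13), and r was 0.91 without the 2 farthest samples. For CCNB1 and TOP2A r was 0.69 (rho 0.55) in the femur and 0.81 (rho 0.78) in the humerus, and 0.42 and 0.66 without the 2 farthest samples. For CCNB2 and TOP2A r was 0.67 (rho 0.26) in the femur and 0.83 (rho 0.81) in the humerus, and 0.13 and 0.70 without them, so the femoral values rest on femur affected 3 and femur non-affected 4. The helicase subunits, read by MCM2 Ssc.1408.2.S1_at and MCM5 Ssc.11264.1.A1_at, gave 0.65 (rho 0.67) and 0.76 (rho 0.79), and 0.90 and 0.70 without the 2 farthest samples. Over all 21 samples this pair had the highest r of the MCM2 with MCM5 pairs, 0.85. MCM2 Ssc.21350.1.S1_at gave 0.31 with MCM5 Ssc.11264.1.A1_at and 0.15 with Ssc.16649.1.S1_a_at. The dim MCM5 probe set Ssc.16649.2.S1_at gave -0.515 to -0.389 with the MCM2 probe sets. After the group means were removed, these values were 0.11 (Ssc.1408.1.A1_at), 0.48 (Ssc.1408.2.S1_at) and -0.22 (Ssc.21350.1.S1_at).

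PCNA ran less closely with the others. With TOP2A its r was 0.63 (rho 0.29) in the femur and 0.58 (rho 0.41) in the humerus, and 0.20 and 0.57 without the 2 samples farthest from the median of PCNA. With CCNB1 it was 0.25 (rho -0.07) and 0.44 (rho 0.32), and -0.54 and 0.35 without them. With MCM2 Ssc.1408.2.S1_at it was 0.54 (rho 0.19) and -0.04 (rho -0.11), and -0.18 and 0.14 without them. The 7 pairs given by joint were picked as descriptions, and values of 1 sample share their array and its scaling.

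**Figure D4:**
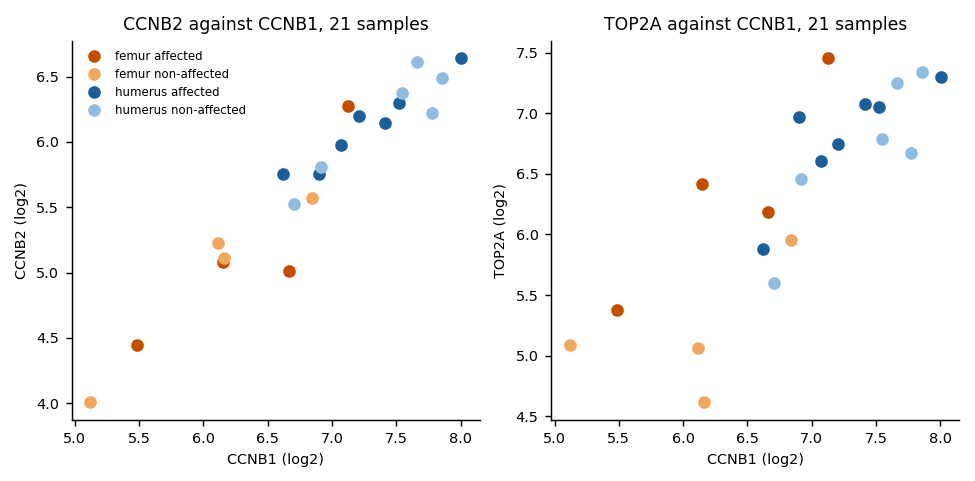
CCNB2 (left) and TOP2A (right) against CCNB1, all in log2 units, with 1 point per sample coloured by group. The femoral points extend the humeral cloud to lower values in both panels, and the points lie closer to a line for CCNB2 than for TOP2A.

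Probe sets of 1 gene did not always vary together. The 3 MCM2 probe sets correlated over all 21 samples with r of 0.40 to 0.73. MCM5 Ssc.16649.2.S1_at correlated with its neighbours at -0.46 (Ssc.11264.1.A1_at) and 0.05 (Ssc.16649.1.S1_a_at) over all samples. After the group means were removed, these correlations were 0.29 and 0.67.

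The genes whose values were most like the mean of the 6 members were ranked over 8062 other named probe sets. Over the 21 samples the closest was RACGAP1 (r = 0.97), which acts in the division of the cell body. PCLAF, a PCNA-binding factor (0.97), and RRM2, a subunit of the enzyme that makes deoxyribonucleotides (0.95), followed. ENOSF1 (0.95), CDCA3 (0.94), H2AFZ (0.94), RAD51AP1 (0.94) and STMN1 (0.93) completed the first 8. In human, ENOSF1 lies antisense to TYMS, and here both genes are read by probe sets of 1 cluster, so their signals may not be separate. With the group means removed, RACGAP1 (0.94), RRM2 (0.93), PCLAF (0.92), CDCA3 (0.90), ENOSF1 (0.90) and STMN1 (0.88) stayed among the first 8, joined by UBE2C (0.90) and CDC20 (0.89).

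RACGAP1 had values of 7.52, 7.35, 8.13 and 7.19 in the affected femur samples and 7.15, 7.15, 6.58 and 6.90 in the non-affected femur samples. It ran from 7.52 through a median of 8.08 to 8.54 in the affected humerus and from 7.63 through a median of 8.22 to 8.54 in the non-affected humerus. Between affected and non-affected femur its difference of 0.60 ± 0.24 (SE) had an adjusted p of 0.173 by limma.

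Other genes of the cell cycle were described from 4 lists, with the brightest probe set of each gene. Of 48 other replication genes, 28 were measured and 26 tested, and in the site comparison 15 (57.7%) were called lower in the femur and 2 higher, with a median of -0.32, beside 34.2% of all tested probe sets called lower. RPA2, part of the complex that coats single-stranded DNA, differed by -0.51 (adjusted p = 3.89e-05 by limma). TYMS, thymidylate synthase, differed by -0.61 (adjusted p = 5.39e-05), and GINS3, a part of the active helicase, by -0.56 (adjusted p = 0.000212). GMNN, geminin, which keeps origins from being licensed again, differed by -0.95 (adjusted p = 0.000196). GINS3 had a femoral mean of 4.99, under the filter on low values, and a humeral mean of 5.56. It was tested because of its humeral values, and for such genes the filter favoured a lower femoral value. The part of the filter in the list counts was not tested. The 2 higher ones were CDC45 (0.50) and RFC1 (0.26), named after their values were seen. The call of RFC1 was lost with array weights (adjusted p = 0.0726) and without femur affected 2 or femur affected 3 (0.0628 and 0.0551). With quantile normalisation 9 were called lower and 4 higher (median -0.18), and with arrays centred 10 lower and 4 higher (median -0.15). Beside these counts, 3912 of all 16799 tested probe sets were called lower and 4693 higher with quantile normalisation. With arrays centred it was 3756 and 4911.

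Of 52 other mitosis genes, 25 were measured and 17 tested. In the site comparison 10 (58.8%) were called lower in the femur and 1, SMC4 (0.34), higher, with a median of -0.46. MAD2L1, of the spindle checkpoint, differed by -0.97 (adjusted p = 0.000360 by limma) and BIRC5, survivin, by -1.01 (adjusted p = 0.00102). RACGAP1 differed by -0.82 (adjusted p = 0.000428) and NUSAP1, which binds spindle microtubules, by -0.94 (adjusted p = 0.00221). With quantile normalisation 7 were called lower and 1 higher (median -0.30), and with arrays centred also 7 and 1 (median -0.28). With these scalings 3912 and 3756 of all 16799 tested probe sets were called lower.

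Of 9 tested genes of cell cycle entry (27 listed, 10 measured), 2 (22.2%) were called lower in the femur, a share under the 34.2% of all tested probe sets. They were E2F3 (-0.41, adjusted p = 0.0148 by limma) and CDK2 (-0.28, adjusted p = 0.0231). The median was -0.17, and with quantile normalisation or arrays centred none of the 9 was called. The call of CDK2 was also lost without femur non-affected 3 or femur non-affected 4 (adjusted p = 0.0515 and 0.0597). Of 15 tested inhibitors (21 listed, 16 measured), 4 (26.7%, again under 34.2%) were called lower and 2 higher, with a median of -0.08 that was 0.01 with quantile normalisation and 0.09 with arrays centred. CDKN3, a phosphatase that acts on cyclin-dependent kinases, had the largest difference of the inhibitors tested, -1.28 (adjusted p = 3.38e-05). Its femoral mean of 5.21 lay under the filter on low values, and its humeral mean was 6.49. CDKN3 was thus tested because of its humeral values, and for such genes the filter favoured a lower femoral value. CCNG2 (-0.92, adjusted p = 0.000557) and CDKN1B, p27 (-0.50, adjusted p = 0.0185), were also lower, while CDKN2C, p18, was higher (0.40, adjusted p = 0.000360). The other higher one was CDKN2D, p19 (0.35, adjusted p = 0.041), named after its values were seen. Its call was lost, leaving CDKN2C, when any of 14 samples was left out (adjusted p = 0.0519 to 0.0877), that is, all but femur non-affected 4, humerus affected 3, 5-6 and 7, and humerus non-affected 2, 4 and 5. The call of CDKN1B was lost with both scalings (adjusted p up to 0.105).

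**Figure D5:**
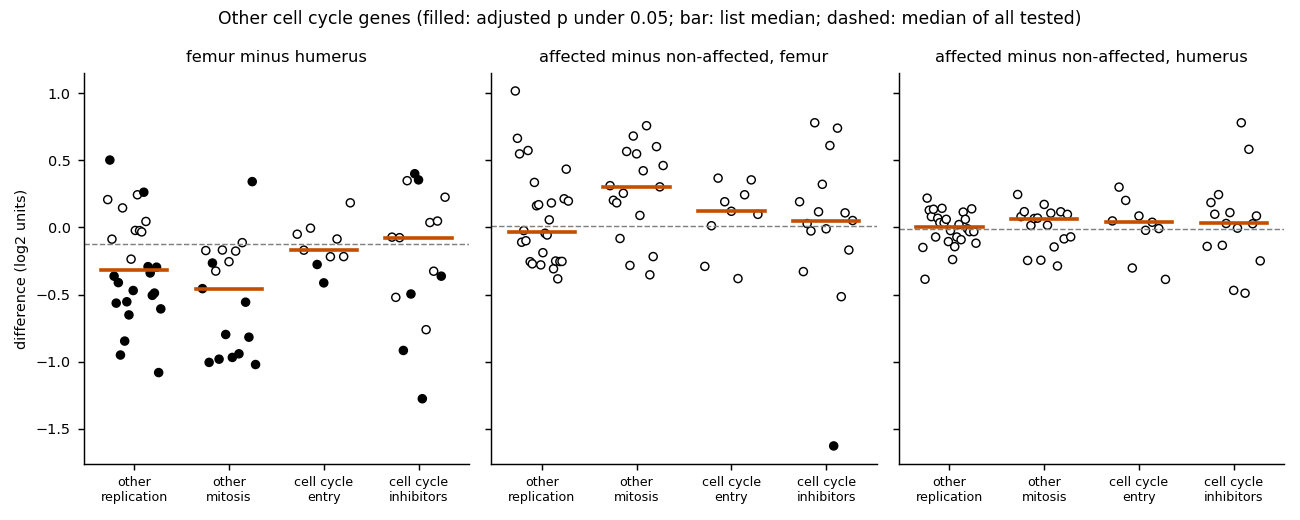
Differences in log2 units (vertical axis) of the tested genes of 4 cell cycle lists (horizontal axis), from left to right femur minus humerus, affected minus non-affected in the femur, and affected minus non-affected in the humerus. Bars mark the list medians (-0.32, -0.46, -0.17 and -0.08 for site), the dashed line marks the median of all tested probe sets, and in the 2 status panels the single filled point is GADD45A at -1.63 in the femur.

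By status in the femur, 1 of the 67 genes tested from the 4 lists was called (1.49%), a share near the 1.14% of all tested probe sets, so the count says nothing particular of these lists. GADD45A, a stress-induced gene that can halt the cycle, had values of 7.72, 6.77, 6.96 and 6.76 in the affected femur samples and 8.58, 9.06, 8.49 and 8.60 in the non-affected femur samples. It was lower in the affected femur by a difference of -1.63 ± 0.37 (SE, adjusted p = 0.0350 by limma). In the humerus it differed by 0.78 ± 0.29 (SE, adjusted p = 0.697), and the difference between both status effects was -2.41 ± 0.47 (SE, adjusted p = 0.0330). The femoral call was lost in 6 of 30 alternatives, with femur affected 2 or femur affected 3 left out (adjusted p = 0.103 and 0.106), femur non-affected 3 or femur non-affected 4 left out (0.106 and 0.0599), array weights (0.128) or the femoral samples alone (0.0783). The call of the interaction was lost in 10 of 29 alternatives (adjusted p up to 0.0902), with array weights and with 1 sample left out, namely femur affected 2 or 3, femur non-affected 1-2 or 3, humerus affected 2 or 4, or humerus non-affected 1, 4 or 6.

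CDC45, which joins the MCM ring to form the active helicase, had values of 8.26, 8.32, 7.91 and 8.14 in the affected femur samples and 7.25, 7.76, 7.39 and 7.57 in the non-affected femur samples. Its difference was 0.67 ± 0.18 (SE, adjusted p = 0.0667 by limma) in the femur and -0.39 ± 0.14 (SE, adjusted p = 0.697) in the humerus, and the difference between both was 1.05 ± 0.23 (SE, adjusted p = 0.0543). These values missed the threshold. With all 23 arrays as samples they were 0.71 (adjusted p = 0.0206) and 1.11 (adjusted p = 0.0129) for the femur and for the interaction. That fit counts the arrays of each near-identical pair as separate samples, which may overstate the number of samples. The femoral difference also passed without humerus affected 2 (adjusted p = 0.048), and the interaction without humerus affected 7 (1.12, adjusted p = 0.0387). The femoral difference thus passed in only 2 of 30 alternatives and the interaction in only 2 of 29. The largest adjusted p was 0.204 for the femur, with the femoral samples alone, and 0.12 for the interaction, without femur affected 2.

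No other gene of the 4 lists passed in a status comparison. In the femur, 13 of 17 mitosis genes were above 0 with a median of 0.30, and without femur affected 3 it was 11 of 17 with a median of 0.15. Examples above 0 are RACGAP1 (given earlier), NUSAP1 (0.76, adjusted p = 0.218 by limma) and CKS2, a small subunit of cyclin-dependent kinases (0.68, adjusted p = 0.214). The 4 below 0 were PLK1 (-0.35), CKS1B (-0.28), PTTG1 (-0.22) and BUB3 (-0.08), named after their values were seen. Of the replication genes 12 of 26 were above 0 with a median of -0.03, and the median of all tested probe sets was 0.01. In the humerus the medians were 0.07 for mitosis, 0.01 for replication, 0.04 for cell cycle entry and 0.03 for inhibitors. Without humerus non-affected 5 they were -0.08 for mitosis and -0.01 for replication.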

How the data were processed

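The deposited table holds 1 log2 value per probe set and array (24123 probe sets, 23 arrays). Per the submitters' processing notes the authors used GCOS 1.1.1; how the arrays were normalised is not given in the sources at hand. Values approach but do not reach 4, or 16 before the log2. They were used as deposited. Gene names came from the platform annotation (10099 probe sets with 1 symbol, 198 with several, 13826 not listed).

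Array pairs of a group whose values differed by an SD under 0.25 were averaged: humerus affected 5 and 6 (0.108) and femur non-affected 1 and 2 (0.214). The next closest pair differed by 0.341. Control probe sets (124) and the 7200 with a mean under the 30th percentile (5.30) were left out, which left 16799. limma 3.58.1 in R 4.3.3 (lmFit, eBayes) tested status with site in the model, site with status in the model, and status within each joint and its interaction in a fit of 4 group means. Benjamini-Hochberg adjustment was over all tested probe sets, with a call at an adjusted p under 0.05. These steps were tested on simulated data. Probe set means cannot be compared between genes as transcript amounts. The number of arrays limits the precision.

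The members and lists were chosen with earlier results of these data known. Named list genes are among the 4 with the smallest p per list and comparison, others being named as chosen later. Likeness is the Pearson r to the mean of the 6 genes' brightest tested probe sets. Alternatives covered the filter, scaling, variance trend, array weights, the 23 arrays, 1 probe set per gene, 1 joint alone, and leaving out each sample. Plots were drawn with matplotlib 3.10.9 in Python 3.11.15. Promoter and protein sequences were not used here.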

Additional observations from a re-analysis of the deposited data

Results flagged for a closer look

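Among 40 groups of values (10 probe sets in 4 groups), 2 samples lay far from the rest of their group by Dixon's test; the 7 affected humerus samples of each probe set are included. Chance flags about 1 in 20 groups. MCM2 probe set Ssc.1408.2.S1_at was 7.06 in femur affected 3, where the nearest other affected femur sample was 6.14, so that the gap took 0.882 of the range of the group (critical value 0.829). PCNA was 7.79 in humerus non-affected 5, where the nearest other non-affected humerus sample was 8.27, with a gap of 0.654 of the range (critical value 0.625).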

How the results depend on the processing

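PCNA, CCNB1, CCNB2, TOP2A, MCM2 Ssc.1408.2.S1_at and MCM5 Ssc.11264.1.A1_at were called lower in the femur under every alternative in which they were tested. For PCNA the difference ran from -1.18 to -0.90 and for TOP2A from -1.18 to -0.79. The site comparison called 4 members with the filter at the 50th percentile, where 6 of them were tested. With that filter it called 6153 of all probe sets tested. No alternative called a member by status. In the femur the count of all called probe sets was 192, and 59 with array weights, 600 with 23 arrays, 4 with the femoral samples alone and 53 to 450 with 1 sample left out. For the interaction it was 45, and 21 with array weights, 220 with 23 arrays and 15 to 98 with 1 sample left out.

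Small differences changed sign; the cause was not tested. For site, MCM5 Ssc.16649.1.S1_a_at was 0.064 with quantile normalisation and 0.056 with arrays centred. With both joints, array weights gave CCNB1 -0.10, CCNB2 -0.12 and PCNA -0.041, and arrays centred gave CCNB1 -0.009. In the humerus, 23 arrays gave CCNB2 0.003 and array weights gave TOP2A -0.024. With 1 sample left out, the ranges with both joints were -0.11 to 0.10 for CCNB1, -0.088 to 0.12 for CCNB2, -0.052 to 0.092 for PCNA and -0.006 to 0.072 for MCM2 Ssc.21350.1.S1_at. In the femur they were -0.016 to 0.59 for CCNB1, -0.13 to 0.48 for CCNB2, -0.001 to 0.34 for PCNA, -0.14 to 0.083 for MCM2 Ssc.21350.1.S1_at and -0.031 to 0.36 for MCM5 Ssc.11264.1.A1_at. In the humerus they were -0.19 to 0.025 for CCNB2, -0.18 to 0.015 for PCNA, -0.10 to 0.27 for TOP2A, -0.011 to 0.26 for MCM2 Ssc.1408.2.S1_at and -0.074 to 0.15 for MCM5 Ssc.11264.1.A1_at. For the interaction they were -0.07 to 0.54 for CCNB2, -0.21 to 0.017 for MCM2 Ssc.21350.1.S1_at, -0.066 to 0.33 for MCM5 Ssc.11264.1.A1_at and -0.035 to 0.20 for MCM5 Ssc.16649.1.S1_a_at. No paired analysis was possible because the labels do not tell which samples are sibs and give no replicate numbers shared between groups. Values near the lower bound compress differences of dim probe sets.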
